A study of Rattus norvegicus with 8 samples.

Results

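The voltage-gated potassium channel genes outside the KCNQ family were examined in nuclei of the rat nodose ganglion, the vagal sensory ganglion whose neurons carry signals from the viscera. The rule took every gene symbol made of Kcna, Kcnb, Kcnc, Kcnd, Kcnf, Kcng, Kcnh, Kcns or Kcnv and a number. It matched 33 of the 30560 genes in the deposited gene list, and the 27 with at least 50 unique molecular identifiers (UMIs, each standing for 1 captured transcript) over all nuclei are the members described here. Just inside this limit were Kcnf1 with 66 UMIs and Kcnv1 with 112. Just outside were Kcna7 and Kcnv2 with 42 each, followed by Kcnh3 with 13, Kcna10 with 11, Kcns2 with 10 and Kcng4 with 8.

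The ganglia came from naïve Long Evans rats aged 8 weeks, 18 male and 18 female, with no treatment. Each of 12 pools held the left or the right ganglia of 6 rats of 1 labelled sex, with 3 pools for each combination of sex and side. A pool's name gives labelled sex (M or F), side (L or R) and replicate, as in ML1 or FR3. If every rat gave both ganglia, as these numbers imply, the left and the right pools of a sex share their animals.

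These genes encode the pore-forming subunits of tetrameric channels that open on depolarisation and carry potassium out of the cell. Kv1 channels (Kcna) open near threshold and hold down repetitive firing, Kv2 (Kcnb) is the main slow delayed rectifier of many neurons, Kv3 (Kcnc) activates at positive voltages and shortens the action potential, and Kv4 (Kcnd) carries the fast transient A-type current. Kcnf, Kcng, Kcns and Kcnv subunits form no channel alone and modify Kv2 when they join it, while the Kcnh genes encode the EAG, ERG and ELK channels, which act on resting potential and spike adaptation. In vagal afferents these currents set how a neuron answers a stretch or chemical stimulus with spikes.

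Promoter windows from RefSeq (rat assembly GRCr8, 250 bases before to 50 after the annotated start) were found for 21 of the 27 members. They are shown for Kcna2, a subunit of the juxtaparanodal Kv1 channel of myelinated axons, and for Kcnd3, the A-type subunit Kv4.3. Both had neuron clusters far above the median cluster and were higher in a class of glia than in neurons, and both lie on chromosome 2, on the plus strand, at chr2:197393280-197393579 and chr2:195626066-195626365. Capitals mark the GC box letters GGGCGG and the CCAAT letters on either strand.
Kcna2: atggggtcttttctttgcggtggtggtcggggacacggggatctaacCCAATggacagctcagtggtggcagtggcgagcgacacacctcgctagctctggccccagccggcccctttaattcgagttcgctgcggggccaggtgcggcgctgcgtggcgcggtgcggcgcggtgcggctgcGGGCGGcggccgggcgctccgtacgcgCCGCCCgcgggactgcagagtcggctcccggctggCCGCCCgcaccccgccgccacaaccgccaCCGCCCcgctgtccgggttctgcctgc
Kcnd3: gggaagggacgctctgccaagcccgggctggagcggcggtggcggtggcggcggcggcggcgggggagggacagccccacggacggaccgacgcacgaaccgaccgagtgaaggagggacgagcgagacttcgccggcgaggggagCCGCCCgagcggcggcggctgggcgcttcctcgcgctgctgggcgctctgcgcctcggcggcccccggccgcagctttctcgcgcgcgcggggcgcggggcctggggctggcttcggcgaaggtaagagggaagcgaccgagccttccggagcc
The Kcna2 window held 4 GC boxes and 1 CCAAT box at 73.3% G and C, and the Kcnd3 window held 1 GC box at 77.7%. These 21 members have 23 windows, since a gene can have more than 1 start, and a member was counted when any of its windows held the letters. GGGCGG was present for 14 of the 21 members (66.7%) against 33.1% of all 33469 windows in the table. CCAAT was present for 4 of 21 (19.0%) against 37.5%, and TATAAA in 0 of 21 against 14.2%. TGTGGT was present in 4 of 21 (19.0%) against 17.3%, CACGTG in 1 of 21 (4.76%) against 6.42%, and TGACGTCA in 0 of 21 against 1.83%. Both strands were searched, and a match is a run of letters, not a shown binding site. The 23 member windows had a median G and C content of 67.7% against 51.7% over all windows. In the GRCr8 gene order Kcna3, Kcna2 and Kcna10 were consecutive protein-coding genes, as were Kcna5, Kcna1 and Kcna6 on another chromosome.

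The deposited counts held 36741 nuclei, of which 36738 were kept, with 7139364 to 19456287 UMIs per pool. Neurons made up 24548 nuclei, 66.8% of those kept, with 1230 to 3475 per pool. Myelinating Schwann cells (2385 nuclei) and satellite glia (1090 nuclei), the glia that wrap sensory cell bodies, were the next named classes, and 7513 nuclei (20.5%) had no name under the marker rule. Of the unnamed nuclei, 3162 in 7 clusters had at least 10 of 14 neuron markers raised and at most 1 marker of any other class, and results that turn on them are given with them included. The 2675 nuclei of 2 further unnamed clusters had 12 and 13 neuron markers raised together with 4 satellite glia markers, and were left out. Of the neurons, 2979 fell in jugular-like clusters, which carry markers of the neighbouring somatosensory jugular ganglion, and these made up between 2.53% (ML3) and 27.7% (ML1) of a pool's neurons. The summed level of 4 Y-linked genes was 2.88 CPM (counts per 1000000 UMIs) in ML1 against 84.4 to 91.3 in the other male-labelled pools, and 88.6 in FL1 against 2.73 to 3.95 in the other female-labelled pools. The libraries labelled ML1 and FL1 therefore go against their sex labels, and the sex results are also given without them. Over the 20 members with at least 500 UMIs in neurons, the coefficient of variation had a median of 4.36% between the 8 sublibraries, which are technical divisions of the same nuclei, and of 13.8% between the 12 pools. Of 34798 barcode combinations, 1865 occurred in more than 1 sublibrary, and 0 of these fell in different pools.

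Transcripts of neurons were found in every class. The 14 neuron markers summed to 9708 to 12536 CPM per pool in neurons, 6311 to 9417 in satellite glia, 3190 to 4993 in Schwann cells and 7363 to 9430 in endothelial cells, and none of the 14 was at 0 in any of the first 3 classes. A level of a member in glia can therefore hold neuronal RNA, and its share was not tested. Glial markers in neurons were lower, with 163 to 253 CPM for the 8 satellite markers and 354 to 522 CPM for 9 Schwann markers. CPM values are not divided by transcript length, so levels are compared between cells for 1 gene and not between genes.

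Neurons fell into 23 clusters, defined without 60 genes of this family and of its accessory proteins, and 22 of them had at least 20 nuclei in 3 or more pools. Among the 20 members with at least 500 neuron UMIs, 10 had a highest cluster mean at least 5 times the median over clusters: Kcnd2, Kcng1, Kcnd3, Kcna1, Kcnh5, Kcna2, Kcnh1, Kcnh7, Kcnh8 and Kcng3. At the other end Kcna6 had the lowest ratio, 1.52. This ratio does not describe the low end, where Kcna6 had 75.4 CPM in its lowest cluster against a median of 227 CPM. These levels describe the clusters and carry no test. 5 members stood among the 10 leading genes of a cluster although none had been used to form it: Kcnh8, Kcng1, Kcna1, Kcnd3 and Kcnd2.

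**Figure D1:**
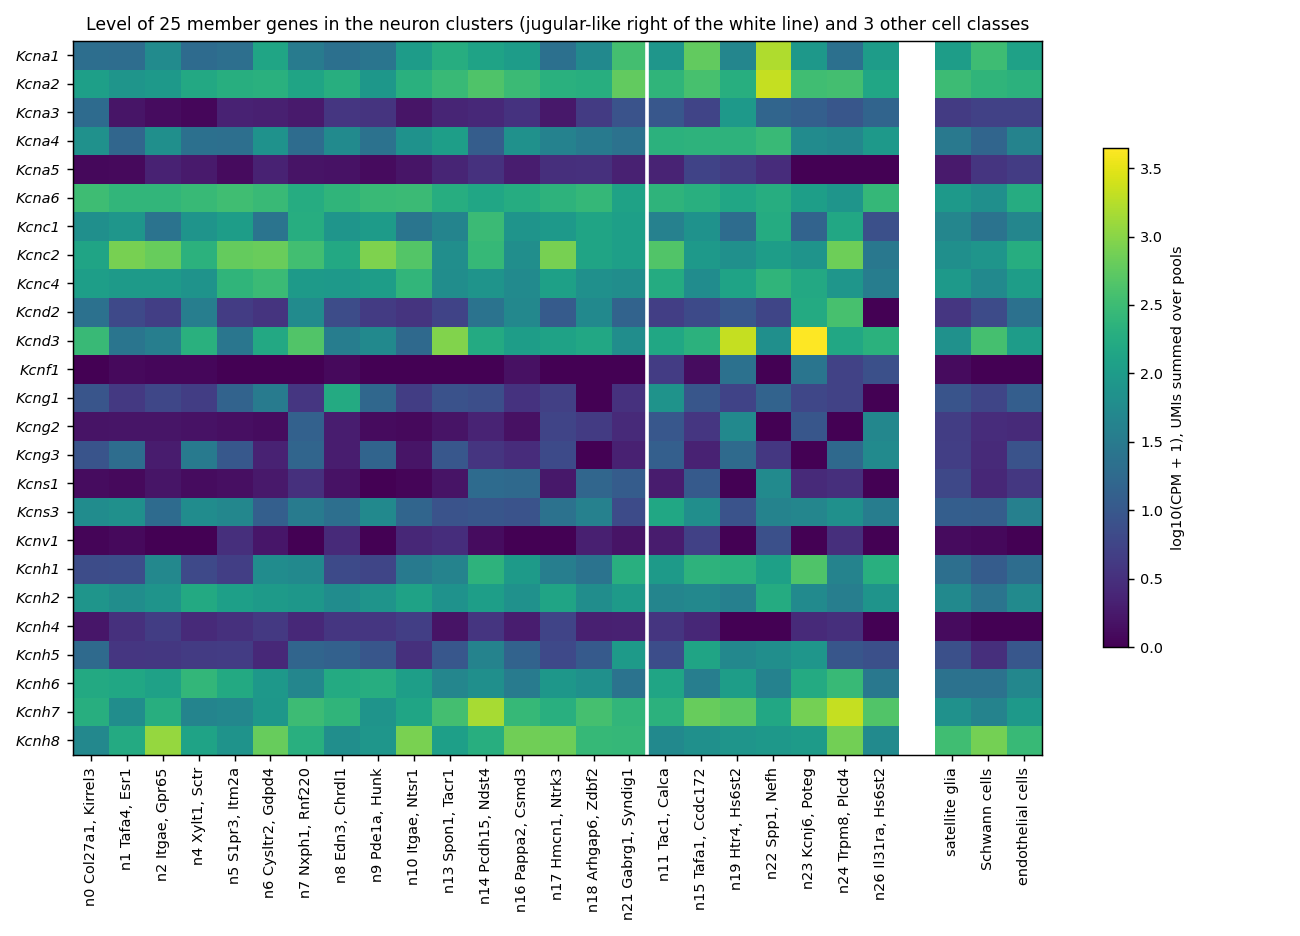
Level of 25 of the 27 members (rows, by family) in the 23 neuron clusters and in satellite glia, Schwann cells and endothelial cells (columns, named by 2 leading genes). Colour is log10(CPM + 1) of UMIs summed over pools, and jugular-like clusters stand right of the white line. Single bright cells such as Kcnd3 in the Kcnj6 cluster contrast with the row of Kcna6, where no cluster stands far above the rest.

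The Kv1 genes divided into cluster-restricted and broad members. Kcna1, which encodes Kv1.1, the subunit behind episodic ataxia with myokymia, was highest in the jugular-like cluster led by Spp1, Nefh and Syt2, a set of 312 nuclei with neurofilament among its leading genes, which was not jugular-like under the other clusterings tried. There it had a lowest pool of 967 CPM, a median of 1594 and a highest of 2474 over 7 pools. The jugular-like cluster led by Tafa1 and Ccdc172 followed with 188, 528 and 1057 CPM over 10 pools, overlapping the first, and the cluster led by Gabrg1 and Syndig1 had 363 ± 117 CPM (SD, n = 10). The median over clusters was 56.9 CPM and the lowest cluster mean 17.6 CPM.

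Kcna2, which encodes Kv1.2, was highest in the same Spp1 cluster, at 1462, 2060 and 2509 CPM in its lowest, median and highest pool (7 pools). The Gabrg1 cluster came second with 578 ± 148 CPM (SD, n = 10) and did not overlap it, followed by the cluster led by Pcdh15 and Ndst4 with 435 ± 77.7 CPM (SD, n = 12). Every cluster had Kcna2, down to a mean of 81.2 CPM in the Tafa4 and Esr1 cluster. Over the 22 clusters the log2(CPM + 1) levels of Kcna1 and Kcna2 had a Pearson r of 0.80. This was the highest among pairs of the 20 members with at least 500 neuron UMIs. It is a description over clusters that share pools and libraries.

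Kcna4, which encodes the inactivating Kv1.4, was highest in the Spp1 cluster with 293 ± 130 CPM (SD, n = 7), the Tafa1 cluster with 234 ± 70.3 CPM (SD, n = 10) and the Tac1 and Calca cluster with 227 ± 27.5 CPM (SD, n = 11), which overlapped each other. The median over clusters was 61.1 CPM. Kcna3, best known from T lymphocytes, had 423 UMIs in all neurons and was highest in the jugular-like cluster led by Htr4 and Hs6st2, at 92.3 ± 36.5 CPM (SD, n = 5), with 18.9 ± 5.79 CPM (SD, n = 12) in the next. Those groups of pools did not overlap. Kcna6, which encodes Kv1.6, ranged from 75.4 CPM in the Trpm8 cluster to 344 CPM in the S1pr3 cluster. Kcna5 had 90 UMIs in neurons and a mean of 0.940 CPM.

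The Kv3 genes Kcnc1, Kcnc2 and Kcnc4 were broad, with a highest cluster between 3.11 (Kcnc4) and 3.87 (Kcnc1) times the median. Kcnc2, which encodes Kv3.2, was highest in the Pde1a and Hunk cluster with 894 ± 104 CPM (SD, n = 12), the Hmcn1 and Ntrk3 cluster with 791 ± 91.5 CPM and the Tafa4 and Esr1 cluster with 786 ± 45.1 CPM, which overlapped each other. Its lowest mean was 52.4 CPM in the Htr4 cluster. Kcnc1, which encodes Kv3.1, was highest in the Pcdh15 cluster with 307 ± 63.6 CPM (SD, n = 12), and Kcnc4 in the Cysltr2 and Gdpd4 cluster with 300 ± 35.7 CPM (SD, n = 12).

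Both Kv4 genes had their highest levels in jugular-like clusters. Kcnd3 in the jugular-like cluster led by Kcnj6 and Poteg (196 nuclei) had 3762, 4459 and 5035 CPM in its lowest, median and highest of 4 pools. The Htr4 cluster followed with 2205 ± 364 CPM (SD, n = 5) and the Spon1 and Tacr1 cluster with 895 ± 117 CPM (SD, n = 12). No pools overlapped between the first and the second or between the second and the third. The median over clusters was 143 CPM and the lowest mean 16.8 CPM in the Itgae and Ntsr1 cluster.

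Kcnd2, which encodes Kv4.2, was highest in the Trpm8 and Plcd4 cluster (195 nuclei, jugular-like; Trpm8 is the cold and menthol receptor). It had 284, 396 and 427 CPM in the lowest, median and highest of 4 pools there. The Kcnj6 cluster had 163 ± 71.2 CPM (SD, n = 4) and did not overlap it, the Nxph1 cluster had 59.3 ± 25.4 CPM (SD, n = 12), and the median over clusters was 9.06 CPM. Kcnd2 and Kcnd3 thus had their highest levels in different clusters, with the Kcnj6 cluster high for both. In the GRCr8 annotation Kcnd2 overlaps Kcnd2l1 and Kcnh7 overlaps Gca, and 8 of the 27 members overlap some annotated gene. The counting's use of strand is not given in the sources used here, so reads of such pairs may be shared.

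**Figure D2:**
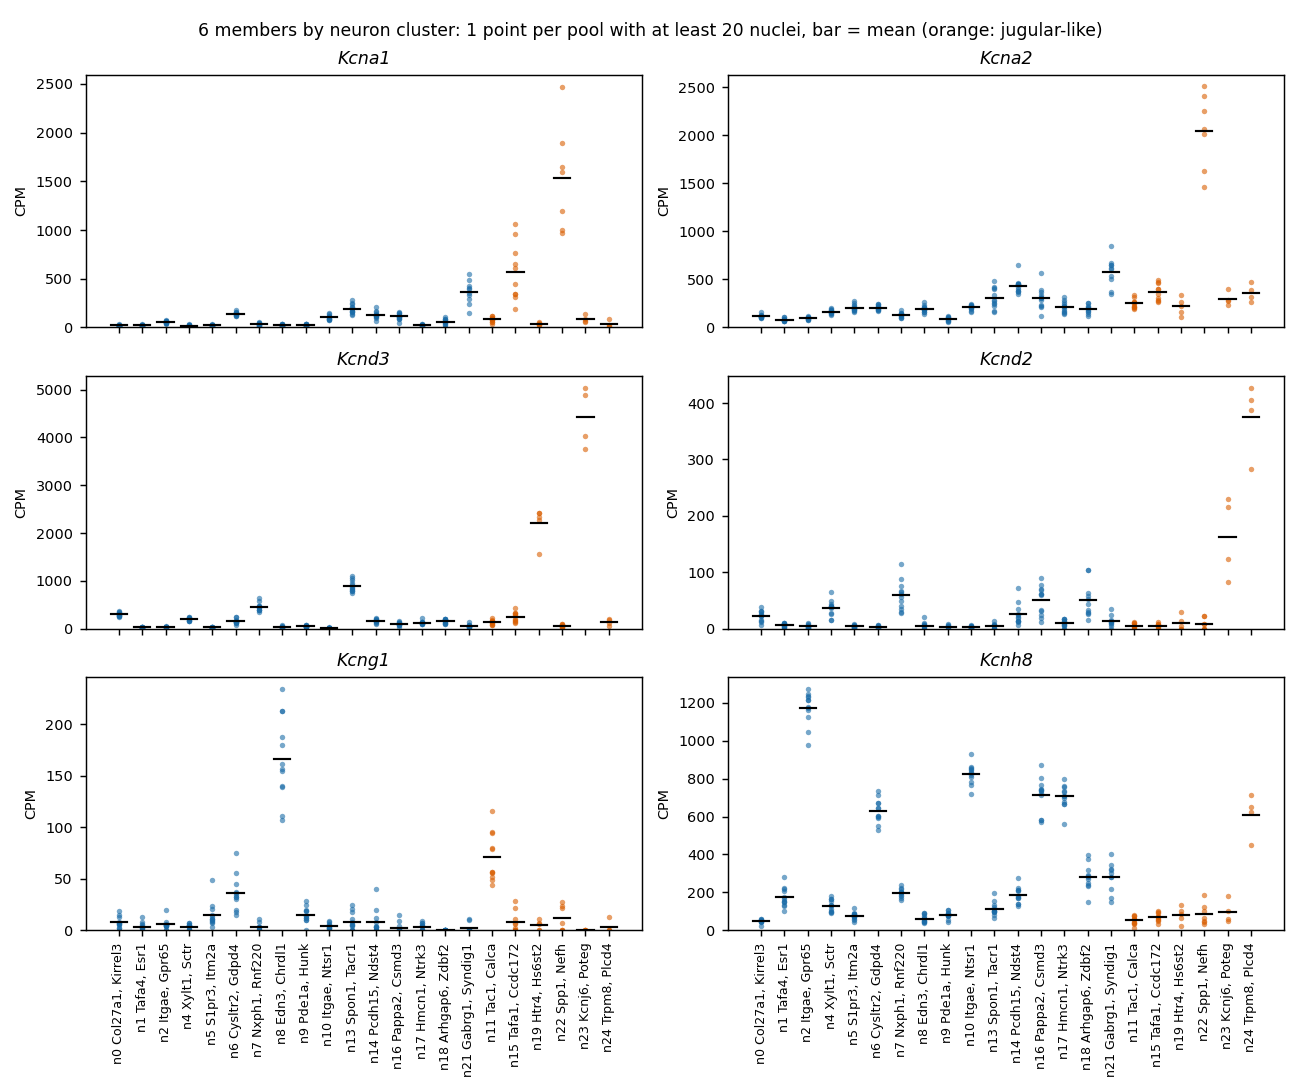
CPM of 6 members (vertical axes, from 0) in each neuron cluster with at least 3 pools of 20 nuclei, with 1 point per pool and a bar at the mean. Jugular-like clusters are orange, and the Spp1 cluster stands above the others for Kcna1 and Kcna2, the Kcnj6 and Htr4 clusters for Kcnd3, the Trpm8 cluster for Kcnd2 and the Edn3 cluster for Kcng1.

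Among the silent subunits, Kcng1 (Kv6.1) was highest in the cluster led by Edn3 and Chrdl1, 1281 nuclei whose leading genes include the hair-cell gene Otof. It had 107, 159 and 234 CPM in its lowest, median and highest of 12 pools. The Tac1 and Calca cluster had 70.6 ± 23.6 CPM (SD, n = 11) and overlapped it, and the median over clusters was 5.00 CPM. An unnamed neuron-type cluster that also had Otof among its leading genes had 106 ± 33.7 CPM (SD, n = 8).

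Kcng3 (Kv6.3) was highest in the Xylt1 and Sctr cluster with 18.1, 33.1 and 47.1 CPM over 12 pools, overlapping the Trpm8 cluster at 19.8 ± 18.2 CPM (SD, n = 4). With UMIs summed over pools, the jugular-like cluster led by Il31ra (58 nuclei, no pool with 20) was highest instead, at 55.0 CPM from 8 UMIs (23.7 to 108 CPM, an exact Poisson 95% interval for counting error) against 31.3 CPM in the Xylt1 cluster. Kcng2 (Kv6.2) had 212 neuron UMIs and was highest in the Htr4 cluster with 59.3 ± 18.9 CPM (SD, n = 5), clear of the 11.4 ± 7.48 CPM (SD, n = 12) of the Nxph1 cluster. Kcns3 (Kv9.3) was highest in the Tac1 cluster at 134 ± 41.5 CPM (SD, n = 11) against 68.0 ± 13.5 CPM (SD, n = 12) in the Tafa4 cluster, with overlap. Among the named clusters Kcns1 (Kv9.1), a gene studied for its association with pain, was highest in the Spp1 cluster at 54.8 ± 28.1 CPM (SD, n = 7). Kcns1 also stood among the 10 leading genes of an unnamed neuron-type cluster of 90 nuclei, which had no pool with 20. Kcnf1 (Kv5.1) had 61 UMIs in neurons and was highest in the Kcnj6 cluster at 29.3 ± 20.9 CPM (SD, n = 4) and the Htr4 cluster at 20.6 ± 7.89 CPM (SD, n = 5), which overlapped. Kcnv1 had 86 neuron UMIs and a mean of 0.953 CPM. Kcna3, Kcng2, Kcns1 and Kcnf1 had too few UMIs for the limit of 500, so their ratios are not counted above.

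The Kcnh genes held both broad and restricted members. Kcnh8, an ELK channel, was highest in the cluster led by Itgae, Gpr65 and Chrm2 (2154 nuclei) with 980, 1198 and 1273 CPM in its lowest, median and highest of 12 pools. The Itgae and Ntsr1 cluster had 825 ± 52.6 CPM (SD, n = 12) and did not overlap it, while the Pappa2 cluster at 714 ± 92.3 CPM (SD, n = 12) overlapped the Ntsr1 cluster. The lowest mean was 47.2 CPM in the Col27a1 cluster, the cluster with the most nuclei (3543).

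Kcnh7, which encodes the ERG channel Kv11.3, was highest in the Trpm8 cluster with 1399, 1855 and 2122 CPM over 4 pools and in the Pcdh15 cluster with 1193, 1487 and 2023 CPM over 12 pools. These overlapped, and the Kcnj6 cluster at 742 ± 29.5 CPM (SD, n = 4) lay below the Pcdh15 cluster in every pool. Kcnh5 (EAG2) was highest in the Tafa1 cluster with 69.7, 122 and 245 CPM over 10 pools, overlapping the Gabrg1 cluster at 94.7 ± 29.8 CPM (SD, n = 10). Kcnh1 (EAG1) was highest in the Kcnj6 cluster with 368, 392 and 511 CPM over 4 pools, above the Pcdh15 cluster at 236 ± 43.9 CPM (SD, n = 12) with no overlap.

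Kcnh6 was highest in the Trpm8 cluster at 316 ± 111 CPM (SD, n = 4), which overlapped the Xylt1 cluster at 252 ± 27.0 CPM (SD, n = 12). Kcnh2, the gene of the cardiac hERG current, was highest in the Spp1 cluster at 184 ± 40.4 CPM (SD, n = 7), a ratio of 2.44 to the median cluster. Kcnh4 had 211 neuron UMIs and 2.30 ± 0.616 CPM (SD, n = 12). Among pairs of the 20 members with at least 500 neuron UMIs, Kcnh7 and Kcna6 had the most opposite patterns, with an r of -0.78 over the 22 clusters.

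Jugular-like and other neurons differed in most members. Of 23 members tested, 15 were higher in jugular-like neurons and 6 lower (edgeR's quasi-likelihood test with pool as a block, Benjamini-Hochberg adjusted p under 0.05 over 11874 genes). The background over all genes was 41.1% called, 20.9% higher and 20.3% lower. The median log2 difference was 1.21 over the members and -0.0011 over all genes. Levels did not overlap between the 2 sets of pools for 13 of the 27 members, against 7.66% of the 16146 genes with at least 50 UMIs.

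The 6 differences of greatest size were all increases. Among them Kcng2 and Kcns1 were low in other neurons and passed the filter on low counts through the jugular-like pools. Their estimates, p-values and ranks carry that selection. Kcng2 had 4.28, 9.28 and 15.004 CPM in the lowest, median and highest pool of jugular-like neurons against 0.238, 1.21 and 2.24 in other neurons, with no overlap, a log2 difference of 2.97 ± 0.22 (SE; edgeR adjusted p = 8.2e-14). Kcnh5 had 30.5, 53.1 and 104 CPM against 7.59, 9.56 and 12.6, again without overlap (2.52 ± 0.14; edgeR adjusted p = 3.9e-17). Kcna1 had 118, 349 and 821 CPM against 51.4, 69.4 and 78.4 and was higher in 12 of 12 pools (2.51 ± 0.13; edgeR adjusted p = 3.7e-18).

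These 3 genes belong to different families, and the next 3 are likewise a silent subunit and a pair of Kv1 genes. Kcns1 had 3.81, 5.58 and 35.2 CPM against 0.866, 1.54 and 3.67, with the highest other pools under the lowest jugular-like ones (2.27 ± 0.29; edgeR adjusted p = 3.3e-08). Kcna3 had 0, 13.4 and 32.1 CPM against 2.11, 3.42 and 4.33, higher in 11 of 12 pools (2.25 ± 0.22; edgeR adjusted p = 7.8e-11). Kcna4 had 169, 216 and 261 CPM against 37.8, 47.5 and 63.2, with no overlap (2.20 ± 0.06; edgeR adjusted p = 1.6e-25).

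The other 9 increases included Kcnh1 (2.11), Kcnd3 (1.74), Kcna2 (1.44), Kcns3 (1.35), Kcnd2 (1.24), Kcnh7 (1.21) and Kcng1 (1.02), as log2 differences. The decreases were Kcnh8 (-1.95 ± 0.08), Kcnc2 (-0.81), Kcnh2 (-0.61), Kcna6 (-0.52), Kcnh6 (-0.32) and Kcnc1 (-0.24). Kcnh8 had 42.3, 98.1 and 135 CPM in jugular-like neurons against 314, 363 and 441 in other neurons, with no overlap. Kcnc4 (-0.10) and Kcng3 (0.07) were not called. Kcnd3 was higher in 11 of 12 pools: ML3, with 35 jugular-like nuclei, had 42.3 CPM against 132 CPM or more for other neurons in any pool.

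The jugular-like class is a mixture whose clusters differ in these genes. Without the Spp1 cluster, an alternative added after the data were seen, 21 of 22 members were called, and Kcna1 fell from 2.51 to 1.84 and Kcna2 from 1.44 to 0.66, while Kcns1 was no longer tested. The Spp1 cluster counted as jugular-like only in the clustering used here: at both other resolutions, and when the members were allowed in, all but 0 to 2 of its 312 nuclei fell among other neurons or were unnamed. At resolutions 0.5 and 2 Kcna1 was 1.44 and 1.42, Kcna2 0.47 and 0.46 and Kcnc1 -0.57 at both, Kcnh6 was not called (-0.14 and -0.13), Kcnc4 was called (-0.25 and -0.26), and Kcns1 was not called (0.47) or not tested. With the members allowed in, all but 150 of the 733 nuclei of the Tafa1 cluster also left the class, Kcna1 (-0.37) and Kcnh6 (0.21) were called in the opposite direction, Kcng3 was called (0.60) and Kcnh5 (0.15) was not. The call for Kcnc1 (edgeR adjusted p = 0.041) was lost without any of ML1, ML2, MR1, MR3, FL2, FR1, FR2 or FR3, with values from 0.054 to 0.24.

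**Figure D3:**
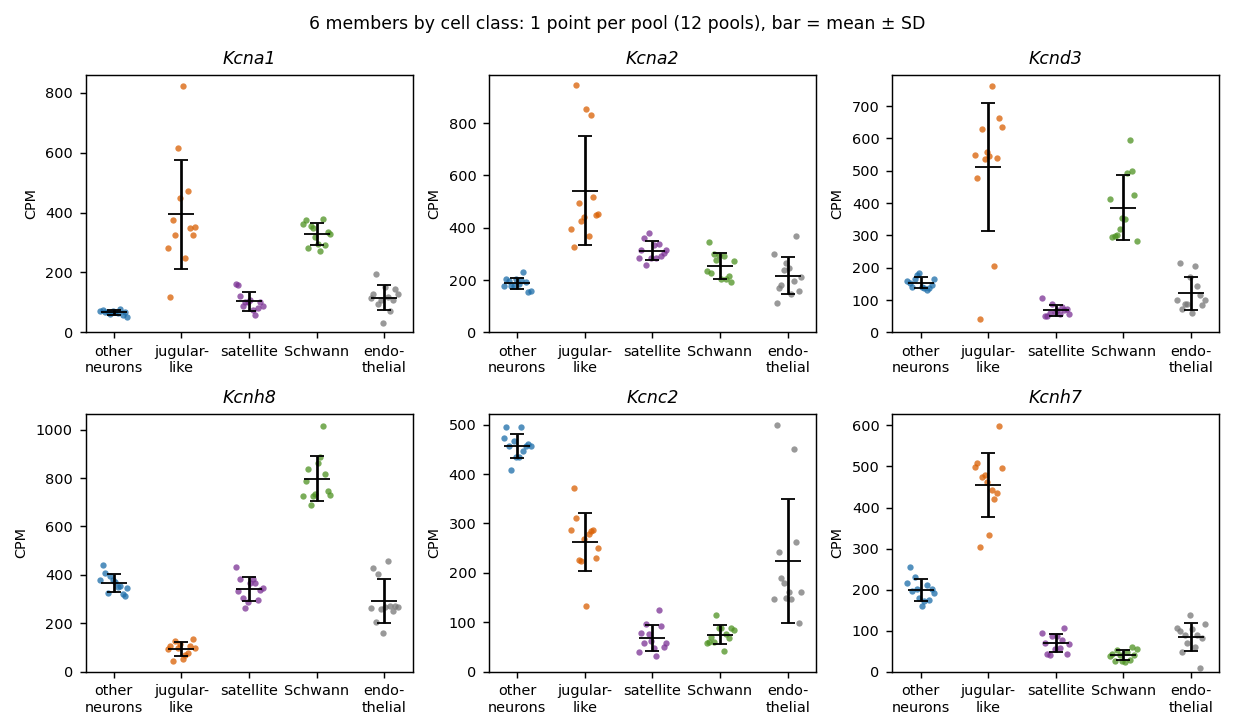
CPM of 6 members (vertical axes, from 0) in other neurons, jugular-like neurons, satellite glia, myelinating Schwann cells and endothelial cells, 1 point per pool (12 pools) with mean ± SD. Kcnh8 and Kcna1 lie higher in Schwann cells than in other neurons in every pool, and Kcnc2 and Kcnh7 lie lower in both glial classes.

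Most members were higher in neurons than in the glia around them. Against satellite glia 18 of 21 members tested were higher and 1 was lower, where 63.3% of 11444 genes were called, 33.0% higher and 30.3% lower (edgeR). The median log2 difference was 1.32 over the members and 0.01 over all genes. Against Schwann cells 16 of 21 were higher and 3 lower, where 71.6% of 11792 genes were called, 38.0% higher and 33.6% lower, and the medians were 2.05 and 0.04. Pools did not overlap between neurons and satellite glia for 12 of the 27 members, against 19.2% of the 16146 genes with at least 50 UMIs, and between neurons and Schwann cells for 19 of 27, against 25.3%. The neuron markers themselves differed by between -0.63 (Nefh) and 2.28 (Syt1) against satellite glia, with 11 of 14 higher and Nefh and Nefm lower, and by between 0.71 (Nefm) and 2.65 (Syt1) against Schwann cells, with all 14 higher. The part of neuronal RNA among glial nuclei in the size of a member's difference was not tested.

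Against satellite glia the 6 called members with the greatest differences were all higher in neurons in 12 of 12 pools. Kcnc2 had 396, 434 and 478 CPM in the lowest, median and highest neuron pool against 32.6, 60.2 and 125 in satellite glia, with no overlap (2.93 ± 0.09; edgeR adjusted p = 2.8e-41). Kcnh6 had 97.6, 129 and 144 CPM against 0, 20.3 and 43.2, with no overlap (2.68 ± 0.13; edgeR adjusted p = 1.4e-29). Kcnd2 had 11.8, 15.6 and 19.5 CPM against 0, 0 and 9.84, and 8 of the 12 satellite pools had no UMI (2.68 ± 0.35; edgeR adjusted p = 4.0e-10).

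The estimates for these Kv3, ERG and Kv4 genes lay above that of the highest neuron marker, Syt1 (2.28 ± 0.07), and no test compared them. That of Kcnd2 had an SE of 0.35 and rested on 10 satellite UMIs. Kcnd2 passed the filter on low counts through the neuron pools, and its estimate, p-value and rank carry that selection. Kcns3 (2.01 ± 0.19) had 33.1, 39.4 and 52.1 CPM against 0, 13.8 and 16.3. Kcnh7 (1.89 ± 0.10) had 167, 227 and 296 CPM against 40.1, 68.5 and 107. Kcnd3 (1.70 ± 0.09) had 137, 199 and 269 CPM against 49.3, 64.8 and 107. No pools overlapped between the classes in these 3 genes.

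Kcna2 was the 1 member lower in neurons than in satellite glia. Over all neurons Kcna2 had 165, 217 and 274 CPM in the lowest, median and highest pool against 259, 309 and 379 in satellite glia and was lower in 12 of 12 pools (-0.37 ± 0.07; edgeR adjusted p = 1.5e-06). The summed neuron markers were lower in satellite glia than in neurons in the ranges given above, while the neurofilament markers Nefh (-0.63) and Nefm (-0.29) were higher there. The part of neuronal RNA in the Kcna2 level of satellite glia was not tested. Kcna1 (0.08) was not called, nor was Kcna3 (0.60), which was called without MR2 (1.21; edgeR adjusted p = 0.029). Kcnh8 was called higher in neurons by 0.16 ± 0.07 (edgeR adjusted p = 0.036), but it was higher in only 6 of 12 pools, the call was lost without any of ML2, ML3, MR1, MR2, MR3, FR1, FR2 or FR3 with values from 0.050 to 0.16, and the sign turned to -0.04 with library totals as the scaling. That scaling moved the median of all genes from 0.01 to -0.18.

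Schwann cells, the myelin-forming glia, had more of 3 members than neurons had. Kcna1 had 273, 331 and 379 CPM in the lowest, median and highest Schwann pool against 74.9, 94.2 and 139 in neurons, with no overlap (-1.57 ± 0.07; edgeR adjusted p = 4.1e-25). Kcnh8 had 687, 768 and 1017 CPM against 293, 326 and 396, with no overlap (-1.08 ± 0.06; edgeR adjusted p = 7.5e-22). Kcnd3 had 281, 353 and 596 CPM against 137, 199 and 269, with no overlap (-0.76 ± 0.09; edgeR adjusted p = 2.9e-10). Each was higher in Schwann cells in 12 of 12 pools, while each of the 14 neuron markers was lower there. The part of neuronal RNA in these levels was not tested.

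The Schwann class joined 4 clusters, and the 3 genes were not equal among them. Kcna1 had cluster means of 270, 474, 290 and 146 CPM, Kcnd3 of 450, 366, 186 and 612 CPM and Kcnh8 of 856, 816, 439 and 1141 CPM, in the same order of clusters. The cluster lowest in Kcna1 was thus the one highest in Kcnd3 and Kcnh8. The cluster means of the 14 neuron markers summed to 3598, 2958, 8035 and 2576 CPM, so the cluster lowest in Kcnd3 and Kcnh8 had the most of them and the cluster highest in both the least, and their part was not tested.

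The 6 greatest increases in neurons over Schwann cells were those of 4 Kcnh genes, Kcnc2 and Kcng3. Kcnh5 had 9.57, 14.6 and 22.8 CPM in neurons against 0, 1.74 and 7.47 (2.99 ± 0.32; edgeR adjusted p = 6.1e-12). The Schwann values of Kcnh5 rested on 11 UMIs. Kcnc2 had 41.1, 73.9 and 114 CPM in Schwann cells, below its neuron values above (2.67 ± 0.08; edgeR adjusted p = 1.0e-32). Kcnh7 had 23.2, 40.5 and 59.2 CPM in Schwann cells (2.64 ± 0.10; edgeR adjusted p = 7.2e-30).

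None of those 3 overlapped with neurons, nor did the next. Kcnh6 had 9.39, 22.0 and 35.1 CPM in Schwann cells (2.63 ± 0.11; edgeR adjusted p = 8.1e-28) and Kcnh1 had 5.16, 9.68 and 23.5 CPM against 33.4, 49.0 and 72.2 in neurons (2.41 ± 0.16; edgeR adjusted p = 4.5e-19). Kcng3 had 6.21, 8.05 and 12.2 CPM in neurons against 0, 0 and 14.02 in Schwann cells, which overlapped, and was higher in 11 of 12 pools (2.49 ± 0.39; edgeR adjusted p = 1.4e-07). Its Schwann values rested on 9 UMIs, and 7 of the 12 Schwann pools had none. Kcng3 and Kcnh5 passed the filter on low counts through the neuron pools, and their estimates, p-values and ranks carry that selection. Kcna2 (-0.06) and Kcna3 (0.30) were not called, though Kcna3 was called at a clustering resolution of 2 (1.18), and Kcna2 took either sign over the alternatives. Kcnf1 and Kcnh4 had no UMI in Schwann cells, which allows up to 0.710 CPM by an exact Poisson limit for counting error, against 0.636 and 2.30 CPM in neurons.

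**Figure D4:**
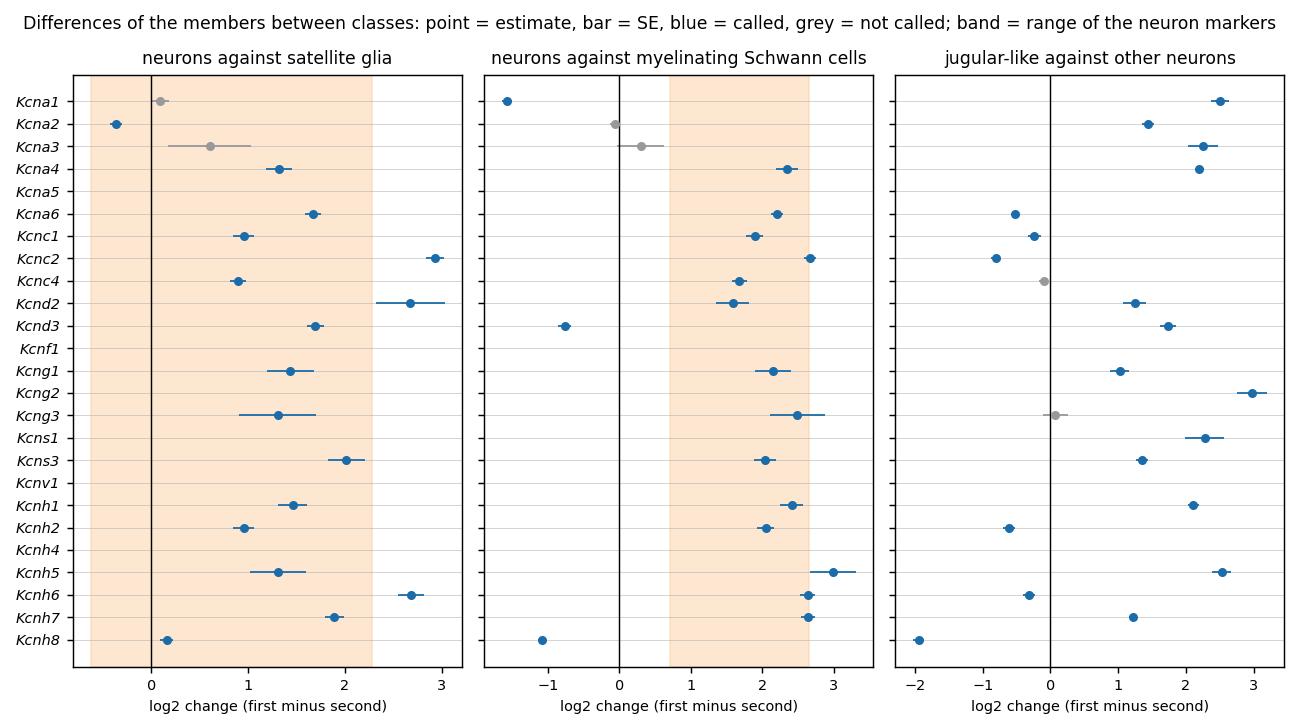
Log2 difference of the members tested in 3 class comparisons (horizontal axes, first class minus second), with SE bars, blue where called and grey where not. The shaded band spans the 14 neuron markers, and in the Schwann comparison Kcna1, Kcnh8 and Kcnd3 lie left of 0 and outside the band.

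The accessory genes of these channels were taken from a list of beta and Kcne subunits, KChIP and DPP proteins, LGI ligands with their ADAM receptors and clustering partners, and 23 were tested. Against satellite glia 14 were higher in neurons and 5 lower, against Schwann cells 17 were higher and 6 lower, and in jugular-like against other neurons 10 were higher and 6 lower (edgeR). The backgrounds are those given above. Kcnip4 and Dpp6, auxiliary subunits of Kv4 channels, were higher in neurons than in satellite glia by log2 differences of 3.04 ± 0.07 and 2.66 ± 0.07, and Cntnap2, which anchors Kv1 channels at the juxtaparanode, was higher than in Schwann cells by 2.62 ± 0.07. Lgi4, a ligand that Schwann and satellite cells secrete, was lower in neurons by -4.30 ± 0.09 and -4.55 ± 0.10. In jugular-like neurons Kcnip1 (2.37 ± 0.10) and Kcnip3 (2.22 ± 0.11) were higher and Kcnip4 (-1.92 ± 0.05) lower, so the KChIP genes differed in direction where Kcnd2 and Kcnd3 were both higher.

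No member was called between left and right neurons. edgeR called 0 of 25 members, with 6 at an unadjusted p under 0.05, where 23 of 13851 genes (0.166%) were called and 967 (6.98%) had an unadjusted p under 0.05. DESeq2 called 1 of the 17 members it tested and 0.932% of genes. The smallest p was that of Kcnc4, the Kv3.4 gene, with 143, 158 and 178 CPM in the lowest, median and highest left pool and 122, 138 and 148 CPM in the right pools, which overlapped. Its log2 difference of right minus left was -0.24 ± 0.06 (edgeR adjusted p = 0.23), and DESeq2 gave an adjusted p of 0.032. Over its alternatives the difference lay between -0.29 and -0.20, and the adjusted p between 0.032 and 0.77. Jugular-like neurons made up 2.53% to 27.7% of neurons in left pools and 3.19% to 14.99% in right pools, and their part in this was not tested. In neurons without the jugular-like clusters, an alternative added after the data were seen, edgeR called Kcna4 lower on the right (-0.37 ± 0.07, adjusted p = 0.018), where 0.569% of genes were called.

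Labelled sex gave no call either, with 0 of 25 members and 6 at an unadjusted p under 0.05, where edgeR called 0 of 13851 genes (0%) and 2619 (18.9%) had an unadjusted p under 0.05. DESeq2 called 372 of 10623 genes (3.502%), 3 of them among the 20 members it tested. Without ML1 and FL1, edgeR called 0 of 24 members, 8 of which had an unadjusted p under 0.05, and 29 of 13928 genes (0.208%). Kcnd2 had the smallest p, with 15.5, 16.6 and 19.5 CPM in male-labelled pools and 11.8, 13.4 and 15.6 CPM in female-labelled pools, which met only at their ends. Its difference of female minus male was -0.34 ± 0.08 (edgeR adjusted p = 0.077; DESeq2 adjusted p = 0.042). Without ML1 and FL1 it was -0.35 ± 0.10 (edgeR adjusted p = 0.14), and over all alternatives the adjusted p lay between 0.042 and 0.21. The tests by labelled sex counted left and right pools as independent, though those of a sex may share their rats.

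The other members that DESeq2 called by labelled sex were Kcnh genes, which were not called by edgeR. Kcnh5 differed by -0.62 ± 0.16 (edgeR adjusted p = 0.093; DESeq2 0.025; without ML1 and FL1 -0.52 ± 0.18, edgeR adjusted p = 0.19), with 13.2, 18.2 and 22.8 CPM in male-labelled and 9.57, 11.4 and 16.0 CPM in female-labelled pools. ML1, whose label its Y-linked genes contradict, had the highest of these values. Without the jugular-like clusters edgeR called Kcnh5 (-0.50 ± 0.10, adjusted p = 0.036), and it was also called without ML3 (adjusted p = 0.049) and without MR1 (adjusted p = 0.033), where 1.01%, 1.57% and 4.01% of genes were called. Kcnh2 differed by 0.25 ± 0.07 (edgeR adjusted p = 0.093; DESeq2 0.030; without ML1 and FL1 0.26 ± 0.08, edgeR adjusted p = 0.17). Kcnh7 was called without ML3 (edgeR adjusted p = 0.049) and not without ML1 and FL1 (-0.17 ± 0.08, edgeR adjusted p = 0.31). The share of jugular-like neurons ranged from 2.53% to 27.7% in male-labelled and from 3.19% to 23.4% in female-labelled pools, and its part was not tested.

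**Figure D5:**
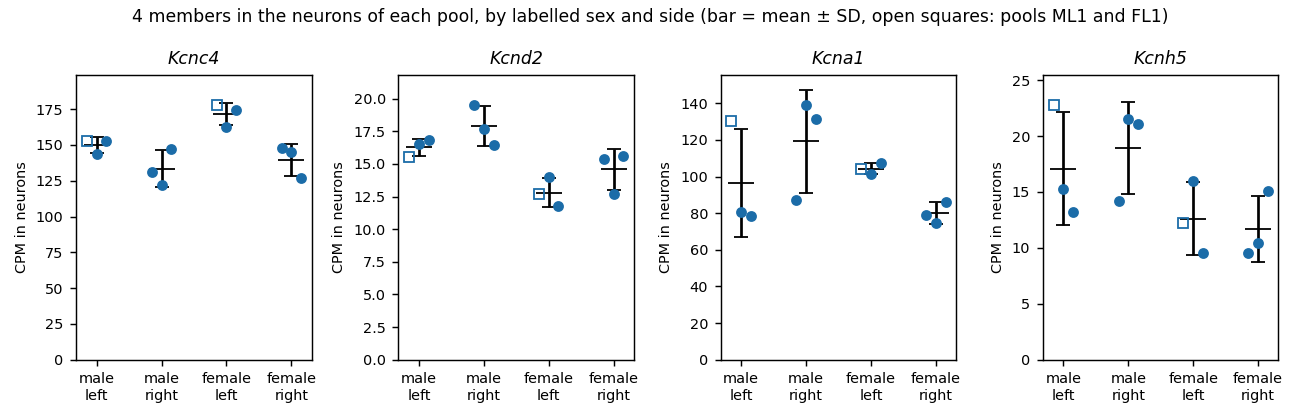
CPM of Kcnc4, Kcnd2, Kcna1 and Kcnh5 in the neurons of each pool (vertical axes, from 0) by labelled sex and side, with mean ± SD of 3 pools. Open squares are ML1 and FL1, the pools whose Y-linked genes go against their labels, and the 6 left and 6 right pools overlap for all 4 genes, as do the 6 pools of either labelled sex. Among the groups of 3, Kcnc4 and Kcna1 do not overlap between female-labelled left and right pools, nor Kcnc4 between the left and Kcna1 between the right pools of either labelled sex, nor Kcnd2 between labelled sexes on either side.

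The effect of side was not called as different between the labelled sexes for any member. edgeR and DESeq2 each called 0 of 25 members and 0 genes (0%), with 1 member at an unadjusted p under 0.05 by either tool, as had 604 genes (4.36%) by edgeR. That member was Kcna1, with 78.3, 80.4 and 130 CPM in the male-labelled left pools, 87.1, 131 and 139 in the male-labelled right, 101, 104 and 107 in the female-labelled left and 74.9, 79.1 and 86.3 in the female-labelled right. The interaction was -0.66 ± 0.26 (edgeR adjusted p = 1.0), -0.94 ± 0.23 without ML1 and FL1 (edgeR adjusted p = 0.96) and -0.18 ± 0.14 in neurons without the jugular-like clusters.

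In glia 0 members were called by side with edgeR or with DESeq2, of 14 tested in satellite glia and 12 in Schwann cells, where 0 of 6378 genes and 0 of 7091 genes (0%) were called. In satellite glia 2 members and 4.48% of genes had an unadjusted edgeR p under 0.05, and in Schwann cells 1 member and 6.18% of genes. Kcnh8 had the smallest p in both. In satellite glia it had 335, 375 and 432 CPM in left and 263, 301 and 347 CPM in right pools (right minus left -0.31 ± 0.10; edgeR adjusted p = 1.0). In Schwann cells it had 724, 850 and 1017 CPM in left and 687, 733 and 817 CPM in right pools (-0.21 ± 0.08; edgeR adjusted p = 0.69). The pools overlapped by side in both classes. The 14 neuron markers summed to 6311 to 8679 CPM in left and 7245 to 9417 CPM in right satellite pools, and to 3190 to 4957 CPM in left and 3642 to 4993 CPM in right Schwann pools, and their part was not tested.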

How the data were processed

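The deposited counts are whole UMIs per nucleus and gene with no normalization, which the authors made from Evercode libraries. The submitters' processing notes name mRatBN7.2, R 4.3.2 and Seurat 4.1.3, and leave the aligner, counter and barcode filter unstated (not given in the sources used here). All 8 deposited sublibraries hold nuclei of all pools, so the 12 pools named in the deposited nucleus table were the replicates. The p-values measure the spread between pools of 6 rats. The tests of labelled sex treated the 12 pools as independent, although the left and right pools of a sex may share their animals. Their p-values do not allow for this. Nothing in the labels pairs left and right pools.

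Kept nuclei had 300 or more genes and no more than 5% of UMIs from mitochondrial genes. Scrublet called 2 doublets and so hardly worked, and leaving out the 1837 nuclei with the highest 5% of scores served as an alternative. Clustering used scanpy 1.11.5 and leidenalg 0.10.2 (3000 variable genes, 30 components, 20 neighbours, resolution 1), then neurons and other nuclei separately on 2000 genes. In the first clustering, a non-neuronal class name needed at least 3 markers 2-fold higher (pseudocount 5 CPM) and present in 10% or more of nuclei. At least 1 marker of that class also had to stand among the 10 leading genes. Remaining clusters were named neurons when at least 3 neuron markers were 2-fold above the Schwann cell clusters. In the separate clusterings 3 raised markers sufficed without a leading gene, and clusters with mixed markers or low depth could stay unnamed. Members, accessory, mitochondrial and Y-linked genes were left out of clustering.

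UMIs were summed per pool and class where at least 20 nuclei were present and tested with edgeR 4.0.16 (quasi-likelihood, TMM, filterByExpr) over all genes, with DESeq2 1.42.0 as an alternative. The filter counted the pools of all groups together, so a gene could enter a test through the group where it was high. Neuron sums held 4762916 to 13886829 UMIs per pool, satellite sums 103808 to 559075 and Schwann sums 142625 to 1089503. On simulated counts for side in neurons (13851 genes), 97.0% of genes changed by a log2 value of 1 were recovered, for neurons against satellite glia (11444 genes) 88.4% and for side in Schwann cells (7091 genes) 79.4%, with 3.92%, 8.02% and 3.41% of calls false. The simulation gave every gene the same dispersion, treated pools as independent and held no changes under a log2 value of 1. Recovery can be lower for members that vary more between pools, such as Kcnh5 (coefficient of variation 30.5% in neurons). Intervals cover counting error only. The members, gene lists and tests were chosen with earlier results of these data known.

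Values by pool are given for the member with the smallest p where none was called, for the 6 called members with the largest change per class comparison, and for the 10 members with the highest ratio of the highest to the median neuron cluster among those with at least 500 neuron UMIs. Kcna2, Kcnh8 and Kcnd3 in glia, and members called only under an alternative, were named after their values were seen. The values of 2 members are not reported here, though both stay in the counts of members.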

Additional observations from a re-analysis of the deposited data

How the results depend on the processing

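Counts of members called by side in neurons were 0 with edgeR, 1 with DESeq2 (0.932% of all genes) and 1 without the jugular-like clusters (0.569%). By labelled sex they were 0 with edgeR, 3 with DESeq2 (3.502% of all genes), 4 of 27 with no filter on low counts (2.34%), 1 without the jugular-like clusters (1.01%) and 0 to 2 when single pools were left out. Leaving out single pools gave 20 to 21 called members for jugular-like against other neurons, 18 to 19 against satellite glia, 19 in each case against Schwann cells, 10 to 11 members with a ratio of at least 5 across clusters, and 0 in each case for the interaction and for side in neurons, satellite glia and Schwann cells. Over the single members reported, 1519 values kept their reading, 26 lost a call, 9 gained one and 10 changed sign. For a log2 difference, a kept reading means the same direction and side of the threshold. For a cluster CPM, which has no call, it means a level within the SD of the main value.

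The changes of sign, as log2 differences, were these. Against satellite glia, library totals turned Kcnh8 to -0.039 and Kcna1 to -0.11, and resolution 0.5 turned Kcna1 to -0.19. Against Schwann cells, Kcna2 became 0.10 with no filter, 0.047 at resolution 0.5, 0.066 at resolution 2 and 0.080 with the unnamed neuron-type clusters included. It was called at -0.24 with library totals. Against other neurons, allowing members in the clustering turned Kcna1 to -0.37 and Kcnh6 to 0.21. Leaving out single pools moved Kcng3 between -0.042, without FR1, and 0.16, without MR2. The causes were not tested.

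Same-numbered left and right pools had correlations of -0.15 to 0.40 over 8742 genes, and differently numbered pools of -0.35 to 0.30. With 3 pools per group, and ML1 and FL1 against their labels, these values cannot show whether pool numbers pair the sides. With the pool number as a replicate block, 0 members were called by side in neurons, satellite glia and Schwann cells. Without the pool as a replicate block in the class comparisons, 18 members were called against satellite glia, 19 against Schwann cells and 20 between neuron classes.

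Depth limits Kcnf1, Kcnv1, Kcna5 and Kcnh4 most. Classes rest on rebuilt cluster names, and 20.5% of nuclei stayed unnamed.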

Other observations

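The members were also present in nuclei that the main comparisons left out. Of the unnamed clusters of neuron type, the one led by Nefh, Hoxb5 and Mab21l2 had Kcna2 at 568 ± 195 CPM (SD, n = 8), and the one led by Csmd3, Zmat4 and Grm8 had Kcna2 at 498 ± 62.3 CPM and Kcna1 at 206 ± 42.1 CPM (SD, n = 10). The cluster led by Ptprt and Nxph1 had Kcnh7 at 258 ± 94.1 CPM and Kcnd3 at 215 ± 44.2 CPM (SD, n = 12). The endothelial class held 595 nuclei, in which the 14 neuron markers summed to 7363 to 9430 CPM. Its 8 endothelial markers summed to 940 to 1830 CPM per pool, against 774 to 2163 CPM for 8 satellite markers and 1152 to 2863 CPM for 9 Schwann markers. In this class Kcnh8 had 292 ± 89.8 CPM, Kcnc2 224 ± 125 CPM, Kcna2 217 ± 71.6 CPM, Kcna6 179 ± 51.2 CPM and Kcna1 116 ± 40.6 CPM (SD, n = 12). The share of neuronal and glial RNA in these values was not tested. Kcnf1, Kcnh4 and Kcnv1 had no UMI in endothelial cells, which allows up to 2.16 CPM by an exact Poisson limit for counting error.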
